A study of Arabidopsis thaliana with 24 samples.

Results

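The small subunit of the cytosolic ribosome, 40S, was followed in rosettes of Arabidopsis thaliana through the transcripts of its proteins. Of 60 listed loci that encode 40S proteins, 38 sat on a probe set to which the array's annotation gives a single gene, and these 38 are described here, out of 13333 genes on such probe sets. A further 11 loci were only on 6 probe sets shared with other genes, and 11 loci were not named by the annotation used, so these 22 loci have no value here. Each of the 38 genes had 1 probe set. Together they stand for 21 of the 27 listed proteins: 13 proteins with 2 or 3 measured gene copies (paralogues) and 8 with 1. The annotation lists most of these loci by code, so protein names follow the standard Arabidopsis nomenclature and copies are told apart by locus.

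The 40S subunit binds initiation factors and messenger RNA, scans for the start codon and decodes the message, while the large 60S subunit joins amino acids. It is built in the nucleolus from 18S ribosomal RNA and its proteins, with assembly factors that leave before translation. Its body and platform hold the channels through which messenger RNA enters and leaves, and its head moves as the ribosome steps along. Plants keep several gene copies for nearly every ribosomal protein, and loss of single copies often gives pointed leaves or slow growth in Arabidopsis. Ribosomal protein genes are most active in growing tissue and are under control of the target of rapamycin (TOR) kinase.

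Plants of the accession Col-0 grew on soil at 20 °C with 12 h of light a day. At 4 weeks of age, 4 h into the light, they were moved to 20 °C (control), 17, 14, 12, 10 or 8 °C, and whole rosettes were frozen 6 h or 78 h later, at both harvests 10 h into the light. No mutant, transgene or chemical was used, and the control plants went through the same move. Each of the 12 groups has 2 arrays, lettered A and B in the labels, made from samples of 3 rosettes. The labels speak of more replicate samples than there are arrays and do not say how those relate to the letters, so p-values measure the spread between these arrays, which may be partly technical.

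The values are the authors' normalized probe-set signals, taken as log2, and ran from 3.87 to 14.81, with array medians of 7.15 to 7.25. The number of arrays, 2 a group, limits the precision. The lettered arrays stood apart: of the 38 genes, 35 were lower on average in the A than in the B arrays, with a median A minus B difference of -0.34 (range -0.86 to 0.70). Arrays of the same letter deviated from their group means together, so the letter was also fitted as a block, and results are given with it where it changed a call. Marker genes of leaf photosynthesis (3 of 21 measured, 2 of which fell at 78 h) summed to 27343 and 31081 in the 8 °C arrays at 78 h, against 35780 and 36710 in the 20 °C arrays, on the linear signal scale. All 3 are LHCB4 genes, so they do not stand for leaf photosynthesis at large. LHCB4.1, the brightest, had a slope of -0.19 at 78 h, LHCB4.2 one of -0.45 and LHCB4.3 one of -0.09. Of all probe sets 6.78% fell at 78 h. At 6 h the slopes of these LHCB4 genes were 0.02, 0.32 and -0.43. Of them 0 were called without the block, where 4.9% of all probe sets rose and 6.15% fell. With the block 1 rose (12.2% of all) and 1 fell (14.7% of all). Markers of dividing cells (2 of 15 measured, neither called) summed to between 806 and 1079 at 8 °C, against between 822 and 971 at 20 °C. The shoot meristem marker CLV3 (1 of 5 measured) had a slope of -0.10 at 78 h and was not called. Its mean signal of 5.22 was below the array medians, so this slope says little about meristem content. Of the root markers (5 of 5 measured) 1 fell at 78 h, where 6.78% of all probe sets fell. Root markers summed to between 332 and 448 at 8 °C, against between 739 and 1071 at 20 °C. The marker that fell was PYK10, a beta-glucosidase abundant in roots and the lower stem, with a slope of -1.54, while EXPA7, a root hair expansin, had one of 0.13 and the other 3 had slopes of -0.07, -0.01 and 0.04. EXPA7 and those 3 had mean signals of 5.18 to 5.97, also below the array medians, so their slopes say little about root content. The part of these shifts in the results below was not tested. In whole rosettes, fewer cells of a type and less RNA per cell cannot be told apart.

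At 78 h most transcripts of 40S proteins had higher signals in the plants kept coldest, by a median of 1.48-fold at 8 °C against 20 °C. The change is given as a slope, in log2 units per 10 °C of cooling over the 6 temperatures, and was tested with limma, with Benjamini-Hochberg adjustment over all 22746 plant probe sets and a threshold of 0.05. Of the 38 genes, 12 rose and 0 fell (0 also at an unadjusted p under 0.05), where 5.31% of all probe sets rose and 6.78% fell. With the letter as a block, 35 rose and 0 fell, where 14.4% of all probe sets rose and 15.1% fell in that fit. The slope was above 0 in 37 of the 38 genes, with a median of 0.47 and a range of -0.14 to 0.77. Over all probe sets the median slope was 0.02 and 55.5% lay above 0. The count of 12 was 4 without the 20 °C A array of 78 h, 6 without the 8 °C B array of 78 h and 7 without the 17 °C A array of 78 h, and was 8 to 13 without any other array.

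**Figure D1:**
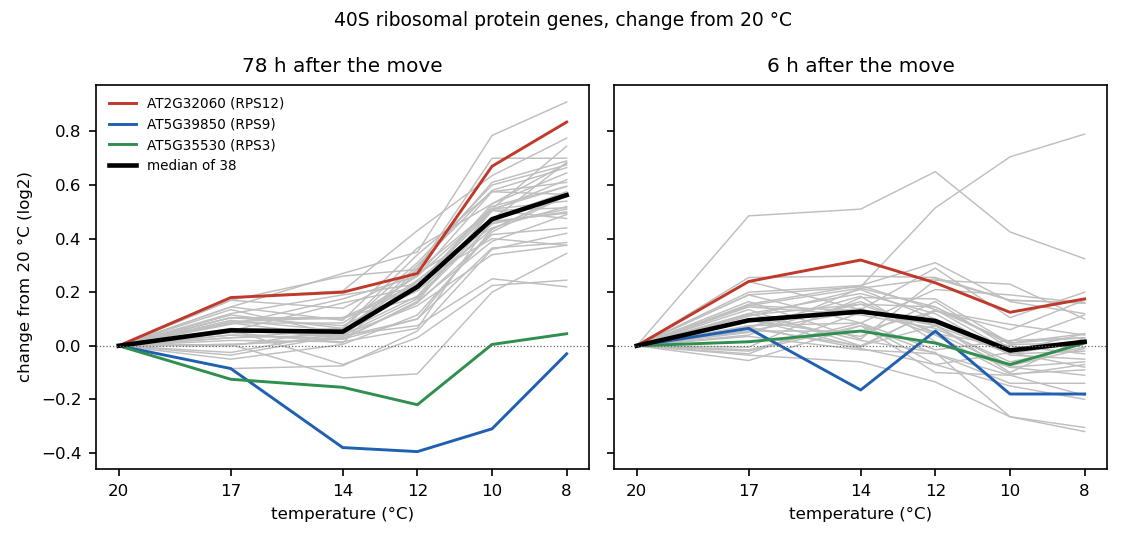
Change of log2 signal from the 20 °C group of the same harvest (vertical axis) at each temperature (horizontal axis, °C, colder to the right), at 78 h (left) and 6 h (right). Each line joins the means of 2 arrays for 1 gene, and the black line is the median of 38 genes, which reaches 0.57 at 8 °C after 78 h and 0.02 after 6 h.

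The median difference was larger at 12 °C and below than at 17 and 14 °C. Set against 20 °C at 78 h, the median over the 38 genes was 0.05 at 17 °C, 0.05 at 14 °C, 0.22 at 12 °C, 0.47 at 10 °C and 0.57 at 8 °C, the last a 1.48-fold higher signal. All 5 comparisons share the 20 °C arrays. At 8 °C both arrays were above both 20 °C arrays for 34 of the 38 genes, where this held for 26.6% of all probe sets. The same held for 33 genes at 10 °C (22.8% of all), 12 at 12 °C (16.4%), 1 at 14 °C (13.5%) and 3 at 17 °C (13%). That count sets arrays of different letters against each other. Within letters, both arrays were above the 20 °C array of their own letter for 37 of the 38 genes at 8 °C (39.5% of all probe sets), 36 at 10 °C (37.6%), 31 at 12 °C (29.8%), 16 at 14 °C (28.1%) and 25 at 17 °C (31.6%). The share of 40S genes was thus above that of all probe sets at each temperature within letters, and below it at 17 and 14 °C across letters.

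By limma, 5 genes were higher at 8 °C than at 20 °C (2.92% of all probe sets), among them AT3G47370, AT3G02560, AT5G16130 and AT5G15200, and 2 were higher at 10 °C (2.04%), among them AT5G15200. With the block the counts were 34 at 8 °C (10.3% of all) and 32 at 10 °C (8.95%). No gene was called higher at 12, 14 or 17 °C by limma (0 with the block too), with unadjusted p under 0.05 for 0, 0 and 0 genes, and for 16, 2 and 0 with the block. At those 3 temperatures 0.369%, 0.0132% and 0% of all probe sets were called higher without the block, and 2.55%, 0.462% and 0.0044% with it. The count of 5 at 8 °C was 1 without the 20 °C A or the 8 °C B array of 78 h, 2 without the 8 °C A array, and 3 without the 20 °C B array or either 10 °C array of 78 h. The count of 2 at 10 °C was 0 without either 20 °C array of 78 h and 1 without either 10 °C array of 78 h or either 20 °C array of 6 h.

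At 6 h the median slope of the family lay near 0. Of the 38 genes 1 rose with cooling (4.9% of all probe sets) and 0 fell (6.15% of all; 0 at an unadjusted p under 0.05 by limma). With the block 1 rose (12.2% of all) and 1 fell (14.7% of all). The median slope was -0.02, with a range of -0.31 to 0.68, and 14 of 38 slopes were above 0 (52.8% of all probe sets). The sign of this median is not settled: A arrays alone gave -0.13 and B arrays alone 0.09, and it ran from -0.15 without the 8 °C B array of 6 h to 0.10 without the 8 °C A array of 6 h. The median change from 20 °C at 6 h was 0.09, 0.13 and 0.09 at 17, 14 and 12 °C. It was -0.02 at 10 °C and 0.02 at 8 °C. Within both letters, 20, 25 and 18 genes were above 20 °C at 17, 14 and 12 °C. Of all probe sets 29.7%, 35.8% and 33.4% were. Both arrays were above both 20 °C arrays for 3, 9 and 3 genes there (11.3%, 17.6% and 16.1% of all). Only 2 genes had both 8 °C arrays above both 20 °C arrays at 6 h, where 21.9% of all probe sets did, and 8 were higher at 8 °C within both letters, where 37.5% of all were. Set against 20 °C at 6 h, 1 gene was called higher at 10 °C (2.77% of all probe sets) and 1 at 8 °C (2.84%). With the block 2 were also called higher at 12 °C (5.52% of all) and 1 lower at 8 °C (9.87%). The count at 10 °C was 0 in 17 of the 24 omissions of an array, and that at 8 °C was 0 without either 20 °C array or the 8 °C B array of 6 h.

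The slope at 78 h was the higher for all 38 genes, by a median of 0.50, where it was the higher for 50.8% of all probe sets. By limma this difference between harvests passed for 1 gene (1.41% of all probe sets), AT5G15200, and with the block for 29 (7.87% of all). The 1 call was lost without the 20 °C or 8 °C A array of 6 h, either 20 °C array of 78 h or the 8 °C B array of 78 h. The count was 3 without the 10 °C or the 8 °C B array of 6 h. In plants kept at 20 °C, 0 of the 38 genes differed between 78 h and 6 h in limma with or without the block (0% of all probe sets). At an unadjusted p under 0.05, 0 were higher and 0 lower without the block, and 0 higher and 3 lower with it. The letters taken alone gave the same direction at 78 h: the median slope was 0.59 with A arrays alone and 0.39 with B arrays alone, and 37 of 38 genes were above 0 in both, where 40.4% of all probe sets were. At 6 h 13 genes had the same sign in both letters, and 5 of them were above 0 in both, where 37.6% of all probe sets were.

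**Figure D2:**
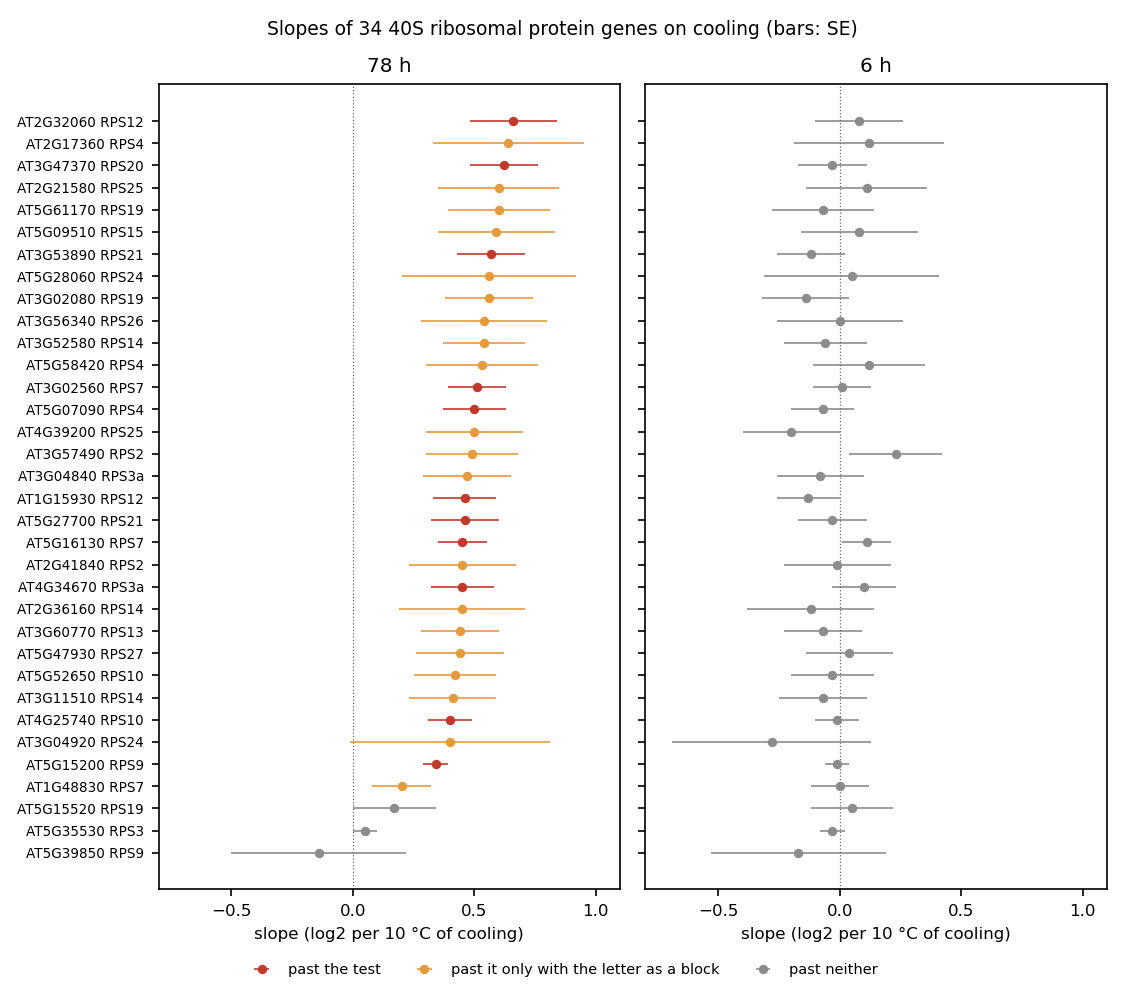
Slope of each of 34 genes (horizontal axis, log2 per 10 °C of cooling, bars are the standard error without the block) at 78 h (left) and 6 h (right), ordered by the slope at 78 h, with locus and protein on the vertical axis. Red genes passed limma's test, orange ones passed it only with the letter as a block, and grey ones passed neither; at 78 h 11 genes are red and 3 are grey.

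Over all proteins with more than 1 measured gene there were 21 pairs of paralogues, and each pair was tested at each harvest for a difference in slope. The test permuted the per-array difference between both genes over the arrays of a harvest (two-sided, 100000 resamples), with adjustment over all 42 tests. Slopes differed in 6 pairs at 78 h and 3 pairs at 6 h. Permuting temperatures only within each letter (exact, replicate block) gave 7 pairs at each harvest, and limma on the pair differences gave 5 and 2. The median size of a difference was 0.11 at 78 h and 0.12 at 6 h. A difference that did not pass does not show that 2 copies behave alike.

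**Figure D3:**
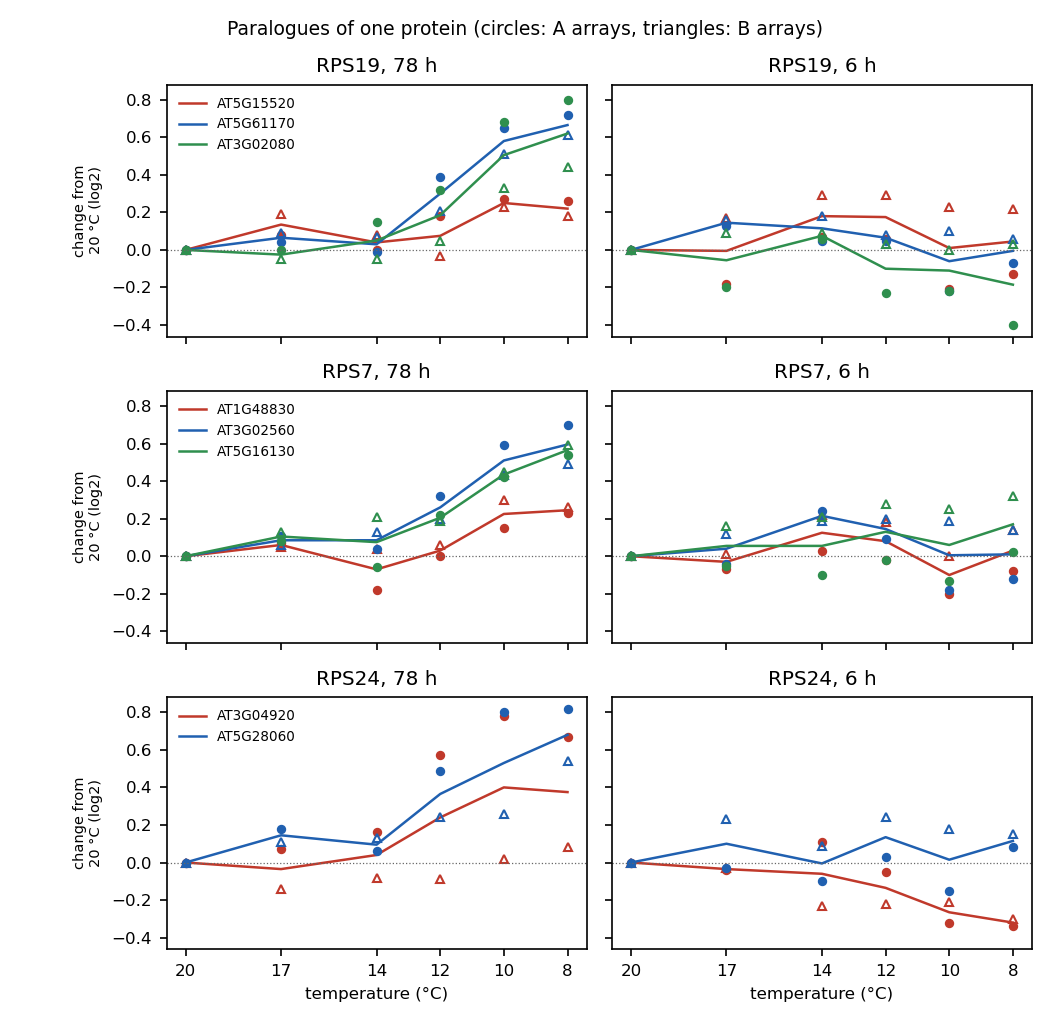
Change of log2 signal from the 20 °C array of the same letter (vertical axis) at each temperature (horizontal axis, °C) for the paralogues of RPS19, RPS7 and RPS24, at 78 h (left) and 6 h (right). Filled circles are A arrays, open triangles B arrays and lines their mean; at 78 h AT5G15520 lies below AT5G61170 at 10 and 8 °C, with slopes of 0.17 and 0.60.

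RPS19, a protein of the head that is needed to mature 18S ribosomal RNA in yeast and human cells, had 3 measured genes. In the A and B arrays in turn, AT5G61170 had log2 signals at 78 h of 12.40 and 12.80 at 20 °C, 12.44 and 12.89 at 17 °C, 12.39 and 12.87 at 14 °C, 12.79 and 13.01 at 12 °C, 13.05 and 13.31 at 10 °C, and 13.12 and 13.41 at 8 °C. AT3G02080 had 12.01 and 12.57 at 20 °C, 12.01 and 12.52 at 17 °C, 12.16 and 12.52 at 14 °C, 12.33 and 12.62 at 12 °C, 12.69 and 12.90 at 10 °C, and 12.81 and 13.01 at 8 °C. AT5G15520 had 9.08 and 9.33 at 20 °C, 9.16 and 9.52 at 17 °C, 9.08 and 9.41 at 14 °C, 9.26 and 9.30 at 12 °C, 9.35 and 9.56 at 10 °C, and 9.34 and 9.51 at 8 °C. In the first and second of these genes both 10 and 8 °C arrays were above both 20 °C arrays, and so they were by a small margin in the third. Slopes at 78 h were 0.60 ± 0.21 (SE) for AT5G61170 and 0.56 ± 0.18 for AT3G02080, both called only when the letter was a block (adjusted p = 1.26e-05 and 4.33e-05), and 0.17 ± 0.17 for AT5G15520, which did not pass with it (adjusted p = 0.122). The slope of AT5G15520 was below that of AT5G61170 (difference -0.43, permutation test, adjusted p = 0.00622), and that of AT3G02080 above that of AT5G15520 (0.39, adjusted p = 0.0214). AT3G02080 minus AT5G61170 was -0.04 (adjusted p = 0.674). At 6 h the slopes were -0.07, -0.14 and 0.05 in the same order of genes, and no pair passed.

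RPS7, on the solvent side of the body, showed a like split. AT3G02560 had signals at 78 h of 12.00 and 12.18 at 20 °C, 12.11 and 12.24 at 17 °C, 12.04 and 12.31 at 14 °C, 12.32 and 12.38 at 12 °C, 12.59 and 12.61 at 10 °C, and 12.70 and 12.67 at 8 °C. AT5G16130 had 12.72 and 12.78 at 20 °C, 12.80 and 12.91 at 17 °C, 12.66 and 12.99 at 14 °C, 12.94 and 12.97 at 12 °C, 13.14 and 13.23 at 10 °C, and 13.26 and 13.37 at 8 °C. AT1G48830 had 11.97 and 12.05 at 20 °C, 12.04 and 12.10 at 17 °C, 11.79 and 12.09 at 14 °C, 11.97 and 12.11 at 12 °C, 12.12 and 12.35 at 10 °C, and 12.20 and 12.31 at 8 °C. All 3 genes had both 8 °C arrays above both 20 °C arrays, by the least in AT1G48830. AT3G02560 rose by 0.51 ± 0.12 (limma, adjusted p = 0.00885) and AT5G16130 by 0.45 ± 0.10 (adjusted p = 0.00662), the first losing its call without the 20 °C A array of 78 h (adjusted p = 0.0777). AT1G48830 had a slope of 0.20 ± 0.12, called only when the letter was a block (adjusted p = 0.017). The slope of AT1G48830 was below that of AT3G02560 (difference -0.31, permutation test, adjusted p = 0.00147) and that of AT5G16130 (-0.26, adjusted p = 0.00042). At 6 h the 3 slopes lay between 0.00 and 0.11.

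RPS24, a protein of the body, had copies that differed at 6 h. AT3G04920 had signals at 6 h of 10.71 and 11.71 at 20 °C, 10.67 and 11.68 at 17 °C, 10.82 and 11.48 at 14 °C, 10.66 and 11.49 at 12 °C, 10.39 and 11.50 at 10 °C, and 10.37 and 11.41 at 8 °C. AT5G28060 had 11.31 and 12.04 at 20 °C, 11.28 and 12.27 at 17 °C, 11.21 and 12.13 at 14 °C, 11.34 and 12.28 at 12 °C, 11.16 and 12.22 at 10 °C, and 11.39 and 12.19 at 8 °C. AT3G04920 was lower at 10 and 8 °C than at 20 °C in both letters, and AT5G28060 had no such order. The slope was -0.28 ± 0.41 for AT3G04920 and 0.05 ± 0.36 for AT5G28060 at 6 h, with a difference of -0.33 (permutation test, adjusted p = 0.0206). By limma that difference did not pass in 14 of the 24 omissions of an array (adjusted p up to 0.231). At 78 h AT3G04920 had signals of 10.52 and 11.72 at 20 °C, 10.59 and 11.58 at 17 °C, 10.68 and 11.64 at 14 °C, 11.09 and 11.63 at 12 °C, 11.30 and 11.74 at 10 °C, and 11.19 and 11.80 at 8 °C, and AT5G28060 had 11.23 and 11.97 at 20 °C, 11.41 and 12.08 at 17 °C, 11.29 and 12.10 at 14 °C, 11.72 and 12.21 at 12 °C, 12.03 and 12.23 at 10 °C, and 12.05 and 12.51 at 8 °C. In both genes every A array was below the B array of its group. Slopes there were 0.40 ± 0.41 and 0.56 ± 0.36, both called only when the letter was a block (adjusted p = 0.0138 and 0.00151), and their difference of -0.17 did not pass (permutation test, adjusted p = 0.347). In AT3G04920 the letters differed, with slopes of 0.70 in A and 0.09 in B.

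A further pair at each harvest passed with a small difference that did not pass by limma. RPS14 of the platform had AT3G11510 at 0.41 and AT3G52580 at 0.54 at 78 h (difference -0.13, permutation test, adjusted p = 0.0214; limma, adjusted p = 0.144). RPS21 had AT3G53890 at -0.12 and AT5G27700 at -0.03 at 6 h (difference -0.09, permutation test, adjusted p = 0.0214; limma, adjusted p = 0.272). With the exact permutation within letters, 1 further pair passed at 78 h, RPS9 (difference 0.48, adjusted p = 0.0268), and 4 passed at 6 h: RPS12 (-0.20), RPS25 (0.31) and 2 of the RPS4 pairs (0.19 and -0.19).

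Among proteins of the head, 4 of 13 genes rose at 78 h (11 with the block), with a median slope of 0.56 and a range of 0.05 to 0.66. Of the body and platform, 8 of 25 rose (24 with the block), with a median of 0.45 and a range of -0.14 to 0.77. Of all probe sets 5.31% rose, and 14.4% with the block. The difference between these parts of the subunit was not tested. RPS12 of the beak had a large slope: AT2G32060 had signals of 11.78 and 11.97 at 20 °C, 11.94 and 12.17 at 17 °C, 11.82 and 12.33 at 14 °C, 12.07 and 12.22 at 12 °C, 12.40 and 12.69 at 10 °C, and 12.56 and 12.86 at 8 °C. Its 8 °C arrays were above every array at 20, 17, 14 and 12 °C. AT2G32060 rose by 0.66 ± 0.18 (adjusted p = 0.0293) and its paralogue AT1G15930 by 0.46 ± 0.13 (adjusted p = 0.0276), calls that were lost in 6 and 5 of the 24 omissions (adjusted p up to 0.165 and 0.157, without the 20 °C A array of 78 h).

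RPS20, next to the RPS3 protein in the head, had AT3G47370 at 11.28 and 11.55 at 20 °C, 11.32 and 11.61 at 17 °C, 11.23 and 11.62 at 14 °C, 11.72 and 11.69 at 12 °C, 12.08 and 11.97 at 10 °C, and 12.15 and 12.06 at 8 °C. Its 12 °C arrays and colder ones were above both 20 °C arrays. The slope was 0.62 ± 0.14 (adjusted p = 0.00829; 0.0806 without the 20 °C A array of 78 h) and -0.03 ± 0.14 at 6 h. RPS10, which in other eukaryotes lies at the tip of the head near the entry of messenger RNA, had AT4G25740, which rose by 0.40 ± 0.09 (adjusted p = 0.00654) in each of the 24 omissions as well, and AT5G52650 at 0.42 ± 0.17, called only when the letter was a block. Other head proteins passed only with the block: RPS25, which in yeast lies near the exit site for transfer RNA, with AT2G21580 at 0.60 and AT4G39200 at 0.50 and RPS15 with AT5G09510 at 0.59.

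RPS3, at the entry of the messenger RNA channel, had the smallest slope of the head at 78 h. Its gene AT5G35530 had signals at 78 h of 12.40 and 12.39 at 20 °C, 12.30 and 12.24 at 17 °C, 12.20 and 12.28 at 14 °C, 12.21 and 12.14 at 12 °C, 12.43 and 12.37 at 10 °C, and 12.47 and 12.41 at 8 °C. At 6 h it had 12.42 and 12.27 at 20 °C, 12.38 and 12.34 at 17 °C, 12.40 and 12.40 at 14 °C, 12.34 and 12.37 at 12 °C, 12.20 and 12.35 at 10 °C, and 12.33 and 12.38 at 8 °C. All 24 values lay between 12.14 and 12.47, with the lowest at 12 °C after 78 h. The slope was 0.05 ± 0.05 at 78 h (adjusted p = 0.654; 0.517 with the block) and -0.03 ± 0.05 at 6 h. Its standard error and that of AT5G15200 of RPS9 were the smallest of the 38 genes. The other 2 RPS3 loci were only on shared probe sets and were not analysed here.

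In the body, RPS4 had AT2G17360 at 11.37 and 12.17 at 20 °C, 11.63 and 12.27 at 17 °C, 11.61 and 12.34 at 14 °C, 11.96 and 12.44 at 12 °C, 12.28 and 12.53 at 10 °C, and 12.36 and 12.73 at 8 °C. Both arrays at 10 and 8 °C were above both 20 °C arrays, and at 12 °C the B array alone was. Its slope was 0.64 ± 0.31, called only when the letter was a block (adjusted p = 6.03e-05), and 0.12 ± 0.31 at 6 h. Of its paralogues AT5G07090 rose by 0.50 ± 0.13 (adjusted p = 0.0223; lost in 3 of the 24 omissions) and AT5G58420 had 0.53 ± 0.23, called only when the letter was a block. AT5G58420 had the third largest slope at 6 h, 0.12 ± 0.23, with signals of 11.50 and 11.89 at 20 °C, 11.56 and 12.13 at 17 °C, 11.76 and 12.06 at 14 °C, 11.63 and 12.26 at 12 °C, 11.52 and 12.21 at 10 °C, and 11.54 and 12.17 at 8 °C. Every array at a lower temperature was above the 20 °C array of its letter, by the least in the A array at 10 °C.

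RPS9, at the entry of the messenger RNA channel, had 1 gene with little spread between arrays and 1 with much. AT5G15200 had signals at 78 h of 13.31 and 13.29 at 20 °C, 13.34 and 13.34 at 17 °C, 13.27 and 13.38 at 14 °C, 13.45 and 13.35 at 12 °C, 13.69 and 13.64 at 10 °C, and 13.64 and 13.73 at 8 °C. At 6 h it had 13.40 and 13.26 at 20 °C, 13.45 and 13.36 at 17 °C, 13.41 and 13.42 at 14 °C, 13.33 and 13.30 at 12 °C, 13.31 and 13.39 at 10 °C, and 13.31 and 13.41 at 8 °C. Both 10 and both 8 °C arrays of 78 h were above all other arrays of the gene. It rose by 0.34 ± 0.05 at 78 h, with the smallest adjusted p of the 38 genes (0.000421), and its slope at 6 h was -0.01 ± 0.05. The difference between harvests was 0.35 ± 0.07 (limma, adjusted p = 0.0179), a call that 5 of the 24 omissions of an array ended (adjusted p up to 0.0635), as did cyclic loess (0.26, adjusted p = 0.153). AT5G39850 had signals at 78 h of 7.66 and 7.23 at 20 °C, 7.59 and 7.13 at 17 °C, 7.27 and 6.86 at 14 °C, 7.49 and 6.61 at 12 °C, 7.53 and 6.74 at 10 °C, and 7.94 and 6.89 at 8 °C. At 6 h it had 8.02 and 6.84 at 20 °C, 8.12 and 6.87 at 17 °C, 7.61 and 6.92 at 14 °C, 7.91 and 7.06 at 12 °C, 7.39 and 7.11 at 10 °C, and 7.28 and 7.22 at 8 °C. Its A arrays were above its B arrays throughout, unlike most of the family, and the letters went opposite ways. Its slope was -0.14 ± 0.36 at 78 h (0.13 in A, -0.40 in B) and -0.17 ± 0.36 at 6 h (-0.66 in A, 0.32 in B). The slopes of both copies were not told apart at 78 h (AT5G15200 minus AT5G39850 0.48, permutation test, adjusted p = 0.317) except by the exact test within letters.

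RPS2, at the entry of the messenger RNA channel, had AT3G57490, which was highest at intermediate temperatures after 6 h. Its signals at 6 h were 10.10 and 10.29 at 20 °C, 10.55 and 10.81 at 17 °C, 10.61 and 10.80 at 14 °C, 10.61 and 11.08 at 12 °C, 10.33 and 10.91 at 10 °C, and 10.20 and 10.84 at 8 °C. All arrays at 17, 14, 12 and 10 °C were above both 20 °C arrays, at 10 °C by little in A, and the 8 °C A array was not. The contrast of 12 °C with 20 °C was 0.65, called only when the letter was a block (adjusted p = 0.0101). Its slopes were 0.49 ± 0.19 at 78 h and 0.23 ± 0.19 at 6 h, the first called only when the letter was a block. The paralogue AT2G41840 had 0.45 at 78 h, also called only when the letter was a block, and -0.01 at 6 h.

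In RPS25 AT4G39200 had signals at 6 h of 11.58 and 11.56 at 20 °C, 11.43 and 11.85 at 17 °C, 11.42 and 11.70 at 14 °C, 11.31 and 11.69 at 12 °C, 11.13 and 11.71 at 10 °C, and 11.13 and 11.61 at 8 °C. Its A arrays were lower at each colder temperature than at 20 °C and its B arrays higher, and the slope was -0.20 ± 0.20. The paralogue AT2G21580 had signals at 78 h of 10.56 and 10.99 at 20 °C, 10.67 and 11.22 at 17 °C, and 10.80 and 11.27 at 14 °C. Colder plants had 10.93 and 11.19 at 12 °C, 11.27 and 11.68 at 10 °C, and 11.25 and 11.70 at 8 °C. Both arrays at 10 and 8 °C were above both 20 °C arrays.

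Other body and platform genes that rose at 78 h were AT4G34670 of RPS3a, at the exit of the messenger RNA channel (0.45 ± 0.13, adjusted p = 0.0305), AT3G53890 of RPS21 (0.57 ± 0.14, adjusted p = 0.0161) and AT5G27700 of RPS21 (0.46 ± 0.14, adjusted p = 0.0495). Their calls were lost in 8, 2 and 16 of the 24 omissions, with adjusted p up to 0.148, 0.168 and 0.317, each without the 20 °C A array of 78 h. Genes called only when the letter was a block were AT3G04840 of RPS3a (0.47), AT3G52580, AT2G36160 and AT3G11510 of RPS14 (0.54, 0.45 and 0.41), AT3G56340 of RPS26 at the exit of the messenger RNA channel (0.54), AT3G60770 of RPS13 (0.44) and AT5G47930 of RPS27 (0.44). Their slopes at 6 h ran from -0.12 to 0.04.

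Across the 12 group means the genes followed a shared profile to different degrees. The correlation with the mean of the other 37 genes was highest for AT3G47370 (r = 0.986) and lowest for AT5G39850 (-0.0204), and was 0.512 for AT5G35530 and 0.606 for AT3G57490. These points share arrays and normalization, so the r values are descriptions over 12 means. Of 13295 other genes on single-gene probe sets, those with the profile most like the mean of the 38 were AT3G49910 (r = 0.991), AT3G16080 (0.989), AT3G51870 (0.988), AT5G27850 (0.985) and AT1G26880 (0.984). All but AT3G51870 are on the list of 60S proteins, as L26, L37, L18 and L34.

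Proteins of the 60S subunit, listed from the nomenclature (79 of 124 loci measured), had 37 that rose and 0 that fell at 78 h (71 and 0 with the block). Of all probe sets 5.31% rose and 6.78% fell (14.4% and 15.1% with the block). At 6 h 0 were called by limma (2 at an unadjusted p under 0.05), where 4.9% of all rose and 6.15% fell. With the block 3 rose (12.2% of all) and 3 fell (14.7%). Their median slope was 0.46 at 78 h and -0.03 at 6 h, beside 0.47 and -0.02 for the 40S genes and 0.02 and 0.01 for all probe sets. The 2 largest were AT2G40010, the stalk-base protein P0 (1.23 ± 0.23, adjusted p = 0.00262), and AT1G07070 of L35a (1.05 ± 0.31, adjusted p = 0.0361).

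Factors that build the 40S subunit and process its RNA (6 of 17 loci measured) rose in part at both harvests. At 6 h 4 of them rose (6 with the block), with a median slope of 0.54, and at 78 h 1 rose (5 with the block), with a median of 0.35. Of all probe sets 4.9% rose at 6 h (12.2% with the block) and 5.31% at 78 h (14.4% with the block). YAO, a nucleolar protein of pre-ribosomal RNA processing, rose by 0.58 ± 0.10 after 78 h (adjusted p = 0.00176) and by 0.65 ± 0.10 after 6 h (adjusted p = 0.000729). AT5G38720, the RNA processing protein RRP7, had 0.50 ± 0.19 at 78 h and 0.42 ± 0.19 at 6 h, both called only when the letter was a block. The difference between this list and the 40S proteins at 6 h was not tested.

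**Figure D4:**
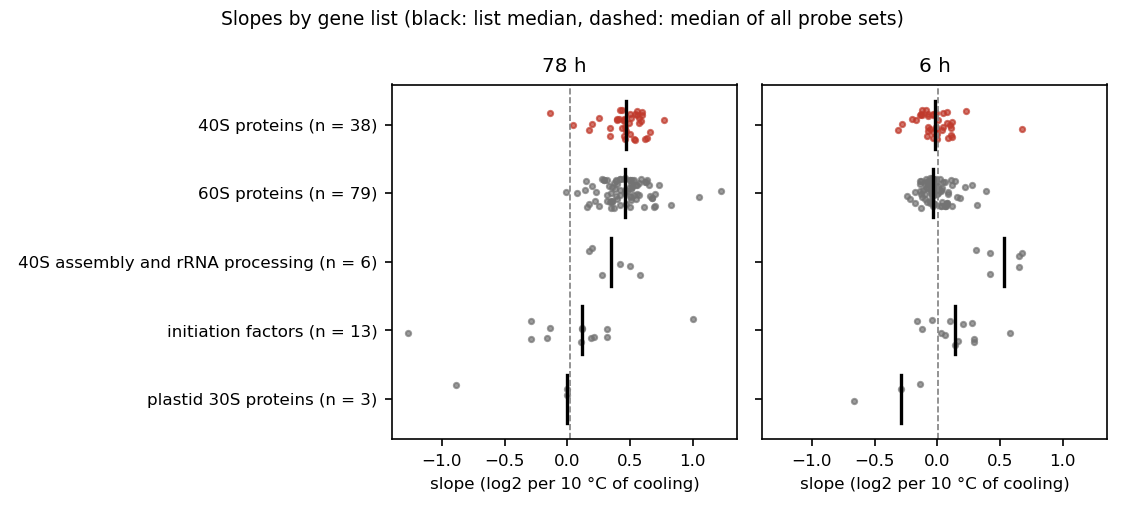
Slope of each gene (horizontal axis, log2 per 10 °C of cooling) by list (vertical axis, jittered), at 78 h (left) and 6 h (right). Black bars are list medians and the dashed line the median of all probe sets; 40S and 60S proteins have medians of 0.47 and 0.46 at 78 h, and at 6 h the 6 assembly factors have a median of 0.54.

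Initiation factors (13 of 39 measured) moved both ways at 78 h, with 2 that rose and 1 that fell (4 and 4 with the block) and a median of 0.12. Of all probe sets 5.31% rose and 6.78% fell there (14.4% and 15.1% with the block). AT1G72730, a copy of the RNA helicase eIF4A, rose by 1 ± 0.11 (adjusted p = 4.74e-05), and AT5G54940, of the start-codon factor eIF1, fell by 1.27 on the log2 scale (adjusted p = 0.00841). At 6 h 2 rose (5 with the block), with a median of 0.14, where 4.9% of all probe sets rose (12.2% with the block). Of elongation factors (2 of 11 measured) none passed without the block at either harvest. With the block 1 rose at 78 h (14.4% of all) and 1 fell at 6 h (14.7% of all). AT5G12110 and AT5G19510, both of the exchange factor eEF1B, had -0.29 ± 0.21 and 0.23 ± 0.16 at 78 h, the second called only with the block. AT5G12110 had -0.53 ± 0.21 at 6 h (limma, adjusted p = 0.142, and 0.00567 with the block).

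Plastid 30S proteins (3 of 13 measured), which serve the chloroplast's own ribosome, had medians of 0.00 at 78 h and -0.29 at 6 h. AT5G24490 fell by 0.89 on the log2 scale at 78 h (adjusted p = 0.0128) and had -0.66 ± 0.21 at 6 h, called only with the block (adjusted p = 0.0099). AT3G13120 had 0.00 ± 0.05 there and fell by 0.29 at 6 h (adjusted p = 0.00113). RAPTOR1 and RAPTOR2, which bring substrates to the TOR kinase, had -0.44 ± 0.17 and -0.05 ± 0.24 at 78 h, the first called only when the letter was a block (adjusted p = 0.000854). Neither RACK1 nor the S6 kinases, which act on the 40S subunit, had a single-gene probe set (0 of 5 loci).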

How the data were processed

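RNA of Arabidopsis rosettes was extracted with Trizol and hybridised as biotin-labelled cRNA to 24 1-colour arrays, per the labels' protocols. The deposited table holds the authors' between-array normalized signals, taken as log2 from their range. How they were normalized is not given in the sources used here, and 64 control probe sets were left out, so that 22746 were tested.

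Genes came from the platform annotation, in which 13513 probe sets have 1 gene, 503 several and 8730 none. The 38 genes and all lists were chosen with earlier results of these data known, and the 60S list was written from the standard nomenclature after the table was seen. The 40S genes are named with their slopes, except a few that are not reported here by name and enter only counts, medians and ranges. Values per array are given for the 5 largest and 3 smallest slopes at 78 h, the 3 largest and 3 smallest at 6 h, the 6 paralogue pairs with the largest differences past the test and AT5G15200, which was added after its values were seen. From other lists the 2 genes with the largest slopes at 78 h are named, and AT3G13120 was named after its 6 h value was seen.

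Limma 3.58.1 (R 4.3.3) was fitted to the 24 arrays with a mean for each of the 12 groups, which left 12 residual degrees of freedom. Slopes were linear contrasts of the group means over the 6 temperatures. P-values were adjusted by the Benjamini-Hochberg method over all probe sets. Paralogue pairs were compared by permutation of the 12 arrays of a harvest, and the fits were tested on simulated data. The letters A and B, from the sample titles, were taken to pair the samples, because A minus B differences of any 2 groups correlated across probe sets at 0.52 to 0.89 (median 0.67, 66 pairs of groups). The letter as a block left 11 residual degrees of freedom. Also tried were centring arrays on their medians, cyclic loess, a filter that drops the dimmest 25% of probe sets, trend and robust estimation, each harvest alone, a straight line on temperature, averaging over probe sets of the same gene, and leaving out each array.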

Additional observations from a re-analysis of the deposited data

Results flagged for a closer look

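In AT5G15200, 1 of the 2 measured RPS9 genes, the slope differed between harvests by the interaction test. It was 0.34 ± 0.05 at 78 h and -0.01 ± 0.05 at 6 h (log2 per 10 °C of cooling), with a difference of 0.35 ± 0.07 (limma, adjusted p = 0.0179; 0.00332 with the replicate block). The call was lost in 5 of the 24 omissions of an array (adjusted p up to 0.0635) and under cyclic loess, where the difference was 0.26 (adjusted p = 0.153). The slope was the higher at 78 h in the A arrays (0.33 against -0.11) and in the B arrays (0.36 against 0.09). This direction was shared by all 38 genes (50.8% of all probe sets), by a median of 0.50. With the block the difference passed for 29 of them (7.87% of all probe sets).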

How the results depend on the processing

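With the replicate block, the counts of 40S genes were 35 rising at 78 h and 1 falling at 6 h, 29 for the difference between harvests, 32 higher at 10 °C and 34 at 8 °C after 78 h, and 2 higher at 12 °C and 1 lower at 8 °C after 6 h. The exact permutation within letters (replicate block) gave 7 pairs at 6 h. A straight line on temperature gave 20 rising at 78 h and 4 for the difference. Cyclic loess gave 0 for the difference, 1 at 10 °C and 10 at 8 °C after 78 h, and median centring gave 1 at 10 °C after 78 h and 0 at 10 °C after 6 h. Each harvest alone gave 8 at 8 °C after 78 h, and 0 at 10 °C and 0 at 8 °C after 6 h, and trend and robust estimation gave 0 at 10 °C after 6 h. The cause of these shifts was not tested. Shares of all probe sets called are not given here for the alternatives other than the block. The 40S counts from those alternatives therefore cannot be set against all probe sets. Leaving out 1 array gave 4 to 13 rising at 78 h and 1 to 1 at 6 h, 0 to 3 for the difference, 1 to 7 higher at 8 °C and 0 to 2 at 10 °C after 78 h, 0 to 1 at 8 °C and 0 to 1 at 10 °C after 6 h, and 5 to 5 pairs at 78 h and 1 to 3 at 6 h by limma. The median slope was 0.37 to 0.60 at 78 h and -0.15 to 0.10 at 6 h without 1 array, and cyclic loess gave 0.43 and 0.04. No slope or pair difference called in the fits without the block changed sign in the alternatives run. The RPS4 difference AT2G17360 minus AT5G07090 at 6 h, called only by the exact test within letters, ran from -0.01 to 0.39 without 1 array. Among single genes, the block moved 52 of 114 slope results past the threshold and out of it 0. Averaging over probe sets of the same gene changes nothing, since each gene had 1. The planned counts of promoter motifs and protein identities were not run. At 78 h 12 genes were called as rising without the block and 35 with it. With 2 arrays a group, changes that were not called may have been missed, and calls near the threshold moved with single arrays.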
